A study of Homo sapiens with 8 samples.

Results

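The ZNF-named zinc finger genes of chromosome 19 are described here: the protein-coding genes of that chromosome whose symbol is ZNF followed by digits and at most 1 letter, with every m6A peak that overlaps their RefSeq bounds (GRCh38.p14) by at least 1 bp. The rule found 246 genes among 20056 protein-coding genes of all chromosomes, and it used no measured value. The study profiled N6-methyladenosine (m6A) on chromosome-associated RNA of HEK293T cells, a long-established line derived from human embryonic kidney, by immunoprecipitation with an m6A antibody (IP) and sequencing. The 4 groups were IP and input of METTL3-/- cells and IP and input of wild-type parental cells, with 2 replicates each. All libraries were stranded and were made from RNA freed of DNA and ribosomal RNA. The labels name no treatment of either genotype. The labels do not say whether the replicates came from separate cultures, which part of METTL3 was deleted, or whether the knockout line is 1 clone. Cells with HAT1 knocked down, mentioned in the series' design text, are not analysed here.

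The deposited files hold 1 list of peaks per genotype, 23937 peaks in the METTL3 knockout and 29084 in wild type, with no value per replicate. No spread between replicates and no test of genotype could therefore be had, and intervals below are 95% Clopper-Pearson intervals that cover counting error only. A peak is called shared where it and a same-strand peak of the other list have at least 1 bp in common. Fold is the peak's own enrichment over the input around it, taken from the authors' lists. Its values fit the scaled IP reads plus 1 over the local input plus 1, so that where the local input is below 1 the added 1 is most of the denominator. Its scale differs between the lists, because 1 IP read counted for 0.44 to 0.48 input-scaled reads in the knockout and for 0.57 to 0.61 in wild type. The METTL3 gene itself carried 0 knockout peaks and 2 wild-type peaks. Of 10 genes chosen as marks of HEK293T cells, 4 carried a knockout peak and 5 a wild-type peak, NEFL among them. A peak list does not measure expression, so a gene without a peak is not shown to be silent or unmethylated, and fewer cells with a transcript and less RNA per cell cannot be told apart.

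METTL3 catalyses the transfer of the methyl group to adenosine in nascent RNA, usually at a consensus around the bases GGAC. Most ZNF-named genes of chromosome 19 encode C2H2 zinc finger proteins with a KRAB domain. These proteins bind DNA through tandem fingers and recruit the corepressor TRIM28 and the histone methyltransferase SETDB1, which silence retroelements and some genes. The genes arose by repeated tandem duplication, lie in clusters, and typically carry all their fingers in a long terminal exon. Because copies are alike, short reads can map to several of them, and the sources used here do not say how such reads were treated.

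The likeness of the copies can be read in the DNA around their starts. From the genes of the ZNF175 to ZNF331 cluster with a shared peak just inside their 5′ bound (described further on), 5 were chosen. The choice was made after the values were seen. All 5 belong to the same group of like windows, so that choice enters the identity given here. Their windows of 300 bases, from 250 before to 50 after the annotated start, are printed below. They come from RefSeq, GRCh38.p14, each on the strand of its gene: ZNF845 at chr19:53333499-53333798 (plus), ZNF765 at chr19:53394899-53395198 (plus), ZNF761 at chr19:53431734-53432033 (plus), ZNF83 at chr19:52690447-52690746 (minus) and ZNF611 at chr19:52734995-52735294 (minus). Capitals mark runs of at least 10 bases found in all 5 windows.
ZNF845: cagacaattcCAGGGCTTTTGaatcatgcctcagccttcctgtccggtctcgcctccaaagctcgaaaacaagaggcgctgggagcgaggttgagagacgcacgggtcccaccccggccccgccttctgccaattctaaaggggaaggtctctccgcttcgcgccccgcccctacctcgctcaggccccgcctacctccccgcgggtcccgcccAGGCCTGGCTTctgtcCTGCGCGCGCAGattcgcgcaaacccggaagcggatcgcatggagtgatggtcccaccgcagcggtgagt
ZNF765: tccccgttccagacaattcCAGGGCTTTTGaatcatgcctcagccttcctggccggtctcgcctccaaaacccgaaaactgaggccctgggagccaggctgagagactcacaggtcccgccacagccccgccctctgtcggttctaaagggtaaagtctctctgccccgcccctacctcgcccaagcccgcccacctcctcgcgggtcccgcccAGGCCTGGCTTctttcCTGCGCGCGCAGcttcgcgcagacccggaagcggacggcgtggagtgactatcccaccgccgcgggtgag
ZNF761: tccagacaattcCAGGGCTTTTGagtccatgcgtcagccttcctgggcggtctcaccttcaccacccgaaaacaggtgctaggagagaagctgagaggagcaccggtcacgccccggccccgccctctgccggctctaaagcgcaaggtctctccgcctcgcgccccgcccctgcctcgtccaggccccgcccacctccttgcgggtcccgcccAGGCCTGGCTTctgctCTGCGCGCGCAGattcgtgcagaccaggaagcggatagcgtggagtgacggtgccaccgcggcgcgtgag
ZNF83: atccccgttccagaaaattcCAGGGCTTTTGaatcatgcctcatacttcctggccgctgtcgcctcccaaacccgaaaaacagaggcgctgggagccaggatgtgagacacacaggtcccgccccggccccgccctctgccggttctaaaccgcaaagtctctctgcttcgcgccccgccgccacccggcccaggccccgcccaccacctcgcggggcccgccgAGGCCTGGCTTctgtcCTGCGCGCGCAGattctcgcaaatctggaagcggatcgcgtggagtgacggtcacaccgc
ZNF611: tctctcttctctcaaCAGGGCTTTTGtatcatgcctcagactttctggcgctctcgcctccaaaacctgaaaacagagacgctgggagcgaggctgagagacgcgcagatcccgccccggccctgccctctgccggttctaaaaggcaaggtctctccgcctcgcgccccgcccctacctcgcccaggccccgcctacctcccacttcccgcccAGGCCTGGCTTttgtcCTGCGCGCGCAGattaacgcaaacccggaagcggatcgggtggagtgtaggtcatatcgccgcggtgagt
The same 3 runs, 34 bases in all, stood in each window. The last of them ended 8 bases before the annotated start in 4 genes and reached 2 bases past it in ZNF83. Aligned in pairs, the 5 windows were between 79.7% and 86.0% identical over their 300 bases, against a median of 46.0% for the other pairs among 216 members with a RefSeq window. GC content was 63.0% to 67.7%. None of the 5 windows held GGACT, a form of the m6A consensus, on the strand of the gene. That motif was found on the gene strand of 94 of 268 member windows (35.1%) and of 25.3% of all 35116 RefSeq windows. The peaks of these 5 genes lay downstream of the windows, and the sequence under them is not used here.

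In the METTL3 knockout list, 105 of the 246 genes carried a peak (42.7%), beside 34.8% of all protein-coding genes. In the wild-type list, 107 of 246 did (43.5%), beside 39.6% of all protein-coding genes. Both lists marked 65 genes, the knockout list alone 40, the wild-type list alone 42, and neither list 99. The 40 made 38.1% of the 105 genes with a knockout peak (interval 28.8% to 48.1%), beside 23.6% over all protein-coding genes. The 42 made 39.3% of the 107 genes with a wild-type peak (interval 29.95% to 49.2%), beside 32.8% over all. In other coding genes of chromosome 19 these shares were 32.7% in the knockout and 47.6% in wild type. In ZNF-named genes of other chromosomes they were 21.5% and 31.1%. Among the 263 ZNF-named genes of the other chromosomes, 54.8% had a knockout peak and 62.4% a wild-type peak. The median gene length was 23.2 kb for those of chromosome 19 and 24.7 kb for those elsewhere.

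Within the bounds of the 246 genes lay 168 knockout peaks and 172 wild-type peaks, or 97.7 knockout peaks per 100 wild-type peaks. The whole lists held 82.3 per 100, ZNF-named genes of other chromosomes 89.4 (364 against 407), other coding genes of chromosome 19 74.3 (411 against 553), and other coding genes elsewhere 80.3. The order of the genotypes within the 246 genes depended on the setting. With peaks on the strand of the gene alone there were 100.7 knockout peaks per 100 wild-type peaks. With equal numbers of the most significant peaks taken from each list there were 123. That last setting puts the whole lists at 100 by construction, in place of 82.3, so the members stood above the whole lists in both cases. The members took 19.9% of the 845 knockout peaks on chromosome 19 and 20.3% of the 849 wild-type peaks. Per megabase of gene the members carried 23.4 knockout peaks and 24.0 wild-type peaks, beside 14.1 and 17.5 over all protein-coding genes. ZNF-named genes of other chromosomes carried more, 26.6 and 29.8, and other coding genes of chromosome 19 fewer, 16.1 and 21.6.

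Of the 168 knockout peaks, 49 were shared (29.2%, interval 22.4% to 36.7%), beside 24.8% of all knockout peaks. Of the 172 wild-type peaks, 49 were shared (28.5%, interval 21.9% to 35.9%), beside 20.4% of all wild-type peaks. In ZNF-named genes of other chromosomes, 32.7% of knockout peaks and 29.7% of wild-type peaks were shared. Other coding genes of chromosome 19 had 29.4% and 22.1%. The median member peak had 29 IP reads at its summit in the knockout and 26 in wild type, beside 31 and 24 over all peaks. Member peaks with up to 15 IP reads were shared in 3 of 32 cases in the knockout and 3 of 35 in wild type. Those with more than 60 reads were shared in 18 of 27 cases (66.7%) in the knockout and 17 of 22 (77.3%) in wild type, beside 55.4% and 56.5% of all peaks so deep. In each of the 4 read classes of both lists the members' share stood above that of all peaks, and its interval took in the share of all peaks. In the deepest class the interval ran from 46.0% to 83.5% in the knockout and from 54.6% to 92.2% in wild type.

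**Figure D1:**
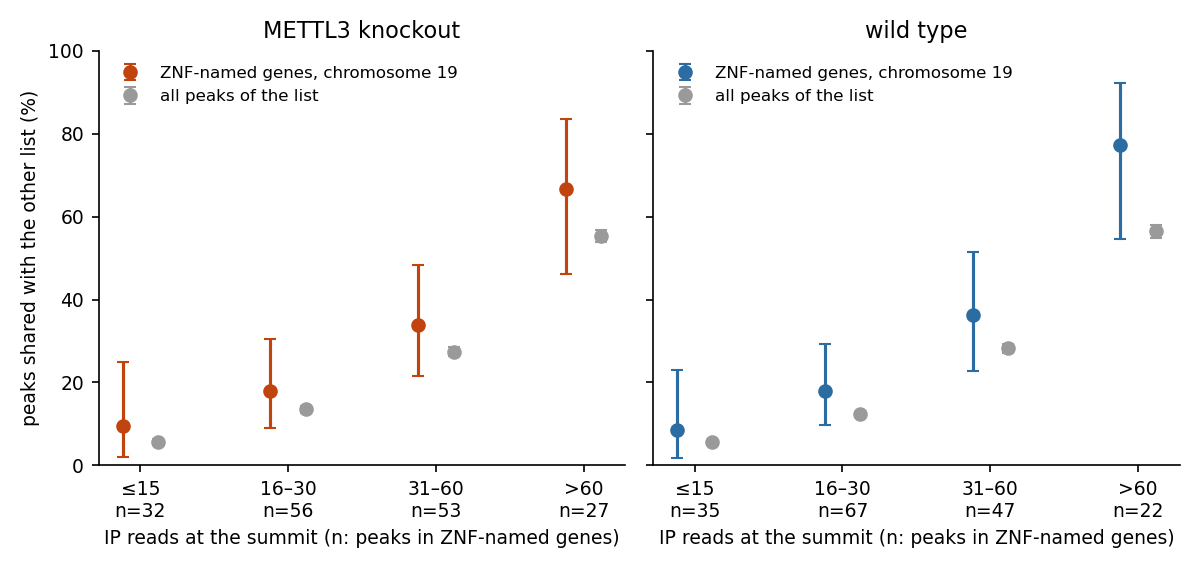
Percentage of peaks shared with the other list (y axis) by the number of IP reads at the summit (x axis), in the METTL3 knockout list (left) and the wild-type list (right). Coloured points are peaks in ZNF-named genes of chromosome 19 and grey points all peaks of the list, with 95% Clopper-Pearson intervals; the share in ZNF-named genes runs from 9.38% to 66.7% in the knockout and from 8.57% to 77.3% in wild type over the read classes.

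Most peaks lay on the strand of their gene. Strand was known for 216 genes, 116 on plus and 100 on minus, from their RefSeq windows. Of 143 knockout peaks whose orientation was scored, 140 lay on the strand of their gene (97.9%), and of 150 wild-type peaks 139 did (92.7%). The 5 minus-strand knockout peaks inside the plus-strand gene ZNF540 were left unscored, because the strand of the overlapping ZNF571 was not known. Counted as opposite to ZNF540, they would lower the knockout share. The 3 opposite-strand knockout peaks and the 11 opposite-strand wild-type peaks were all unshared. The strongest of them was a wild-type peak on the minus strand of ZNF791, a plus-strand gene, at chr19:12614892-12615098, with a fold of 18.8, the highest of any member in that list. On plus the knockout list held 103 member peaks and the wild-type list 98, and on minus 65 and 74.

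Along the chromosome, 235 of the 246 genes fell into 11 clusters, runs of at least 3 genes with gaps of at most 500 kb, and 11 genes stood outside them. The ZNF175 to ZNF331 cluster (39 genes, chr19:51571283-53580269) carried the most peaks, 35 in the knockout and 39 in wild type. It also held 19 of the 49 shared knockout peaks and 20 of the 49 shared wild-type peaks, so that 54.3% of its knockout peaks and 51.3% of its wild-type peaks were shared. Without that cluster, an alternative added after the data were seen, 22.6% of the remaining knockout member peaks were shared, below the 24.8% of the whole list, and 21.8% of the remaining wild-type ones, beside 20.4%. The ZNF264 to ZNF446 cluster (43 genes, chr19:57191500-58489533), which reaches the end of the long arm, had 24 knockout and 34 wild-type peaks, of which 12 and 11 were shared. Most of its peaks were on plus, 21 of 24 in the knockout and 28 of 34 in wild type. Of its 43 genes, 27 were on plus, 13 on minus and 3 of unknown strand.

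The other large clusters held at most 3 shared peaks in each list. The ZNF565 to ZNF573 cluster (26 genes) had 28 knockout and 18 wild-type peaks, of which 3 in each list were shared. The ZNF101 to ZNF254 cluster (37 genes over 4462 kb), which includes ZNF91 and ZNF93, known as repressors of the SVA and LINE-1 retroelements, had 22 and 19, again with 3 shared in each. Neither ZNF91 nor ZNF93 carried a peak, and 20 genes of that cluster had none. The ZNF653 to ZNF791 cluster (25 genes) had 8 knockout and 11 wild-type peaks, the ZNF575 to ZNF180 cluster (23 genes) 12 and 19, and the ZNF414 to ZNF846 cluster (13 genes) 12 and 6. The ZNF628 to ZNF835 cluster (16 genes) had 7 knockout and 5 wild-type peaks, with 1 shared in each list. Of the 3 small clusters, ZNF554 to ZNF77 had 5 knockout and 2 wild-type peaks and ZNF302 to ZNF792 had 1 and 4. In ZNF546 to ZNF780A, 3 genes, all 5 peaks were in the knockout list. The difference between lists ran both ways, from 10 more knockout peaks in ZNF565 to ZNF573 to 10 more wild-type peaks in ZNF264 to ZNF446.

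**Figure D2:**
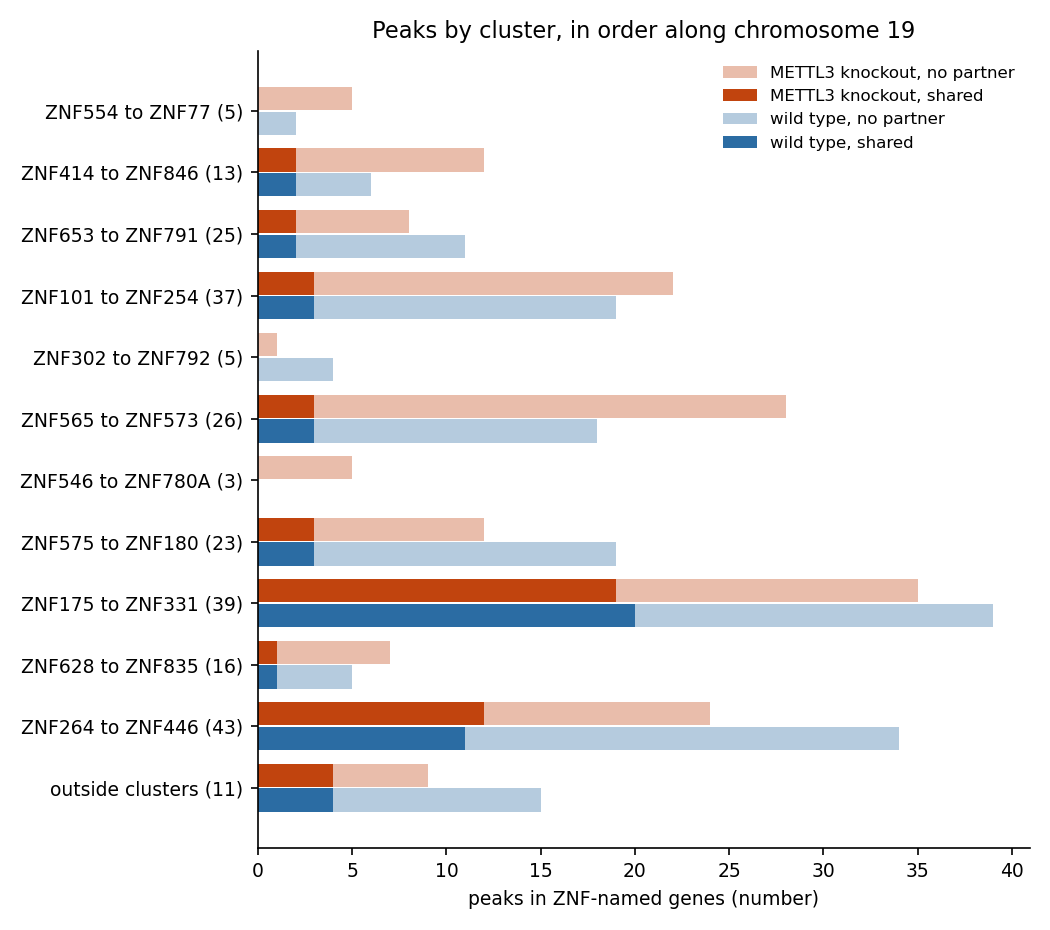
Number of peaks (x axis) in the ZNF-named genes of each cluster (rows, in order along chromosome 19, with the number of genes in brackets), METTL3 knockout bars above wild-type bars. Dark parts are peaks shared with the other list; the ZNF175 to ZNF331 and ZNF264 to ZNF446 clusters hold most of them.

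In the ZNF175 to ZNF331 cluster, 9 of the 19 shared knockout peaks and 10 of the 20 shared wild-type peaks lay near the start of a gene of known strand. The others lay further inside such a gene or in ZNF480 and ZNF888, whose strand was not known, so that their place along the gene was not scored. Of 29 knockout peaks on the strand of a gene there, 11 had their summit in the first 10% of the gene (37.9%), and of 30 wild-type peaks 12 did (40.0%). Over all members the first 10% held 16 of 140 knockout peaks (11.4%) and 22 of 139 wild-type peaks (15.8%). This feature was chosen after the values were seen and has no test. In the cluster 9 genes of known strand had such a shared peak: ZNF845, ZNF765, ZNF761, ZNF83, ZNF611, ZNF468, ZNF616, ZNF766 and ZNF841. Their summits lay between 0.65 and 1.25 kb inside the 5′ bound, downstream of the windows printed above. Over all members, peaks in the first 10% were shared in 10 of 16 cases in the knockout and 11 of 22 in wild type, against 33 of 124 (26.6%) and 32 of 117 (27.4%) elsewhere in the gene. They were also deeper, with a median of 57.5 IP reads in the knockout and 35.5 in wild type, against 27.5 and 26.0 elsewhere, and the part of read depth in their sharing was not tested. Outside the ZNF175 to ZNF331 cluster, 1 of 5 knockout peaks and 1 of 10 wild-type peaks in the first 10% were shared.

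**Figure D3:**
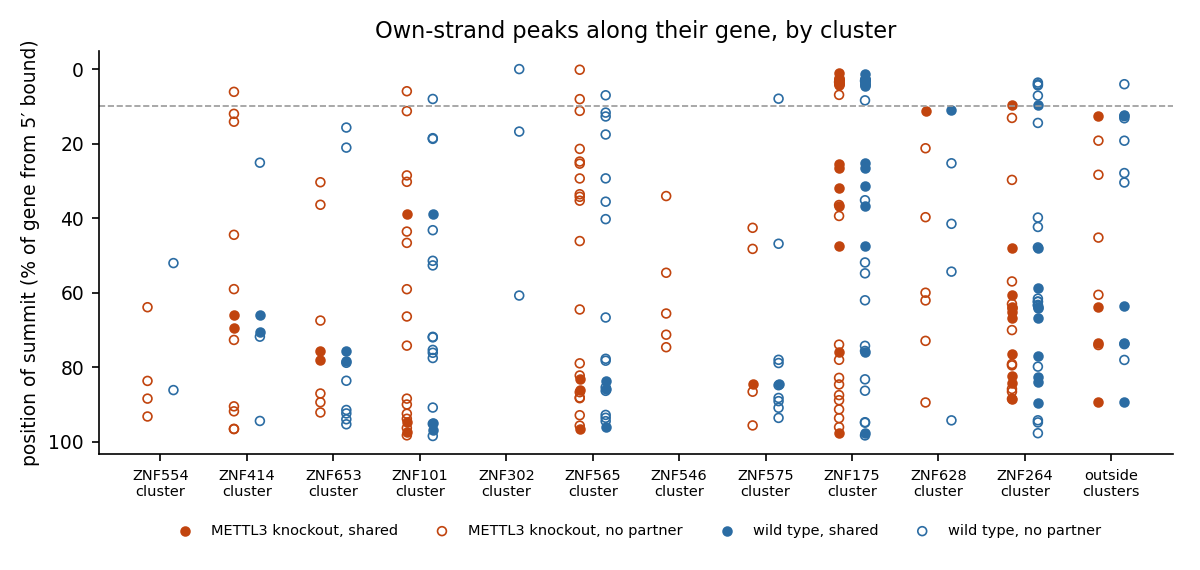
Position of the summit of each own-strand peak as a percentage of its gene from the 5′ bound (y axis, running down), by cluster in order along the chromosome (x axis), METTL3 knockout left of wild type in each cluster. Filled points are shared and open points have no partner; the filled points above the dashed line at 10% stand in the ZNF175 cluster, apart from 1 of ZNF8 in each list.

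ZNF845 carried the highest fold of all members. Its knockout peak at chr19:53334020-53334582 had a fold of 47.6 from 137 IP reads, and its wild-type peak at chr19:53334261-53334553 a fold of 5.24 from 76 IP reads, with summits 3 bp apart. The local input at the summit, on the peak caller's scale, was 0.4 in the knockout and 8.0 in wild type. ZNF765 had a fold of 20.01 from 48 IP reads in the knockout, against 3.32 from 53 IP reads in wild type, with a local input of 0.2 in the knockout and 9.0 in wild type. ZNF83 had a fold of 16.04 from 71 IP reads in the knockout, against 4.93 from 50 in wild type, with a local input of 1.0 in the knockout and 5.0 in wild type. In these 3 genes the lists differed more in the input under the peak than in the IP reads.

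The other 6 genes with a shared peak near the start went both ways. ZNF761 had a fold of 12.2 from 100 IP reads in the knockout, against 18.6 from 84 in wild type, the highest fold among shared wild-type member peaks. ZNF468 had 5.94 from 14 reads in the knockout, against 11.8 from 23 in wild type. ZNF766 had the deepest member peak of either list, with 260 IP reads in the knockout and 265 in wild type, with low folds of 4.49 in the knockout and 5.06 in wild type over a local input of 27 and 31. ZNF841 had a fold of 4.30 in the knockout and 3.77 in wild type, and ZNF616 had 6.64 and 5.86 there. ZNF813 had a knockout peak 1.98 kb inside its 5′ bound with a fold of 9.39 and no partner, and ZNF160 a knockout peak 1.29 kb inside with a fold of 14.2 and no partner.

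ZNF611 held more peaks than any other member, 8 in the knockout and 7 in wild type, of which 5 and 6 were shared. All 15 lay on its own minus strand. From 5′ to 3′, the shared knockout peaks had folds of 8.66, 11.2, 4.25, 4.62 and 5.10. The broad first knockout peak, 673 bp wide with 156 IP reads, covered 2 wild-type peaks with folds of 8.15 and 9.51, and the wild-type peaks that followed had folds of 10.7, 3.65, 10.8 and 9.33. Near its 3′ bound the lists marked different places, with 3 knockout peaks and 1 wild-type peak that had no partner.

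The members were also grouped by the likeness of their windows, after the values were seen and with no test. Windows at least 75% identical joined 58 members into 12 groups. The largest, 26 genes of the ZNF101 to ZNF254 cluster, had 1 member with a knockout peak in its first 10% (ZNF430) and 1 with a wild-type peak there (ZNF431), while 9 had a knockout peak and 7 a wild-type peak anywhere. The next, 10 genes of the ZNF175 to ZNF331 cluster, had 7 and 6. Its remaining 3 genes, ZNF525, ZNF701 and ZNF808, had no peak near the start in either list. A group of 2 genes, ZNF616 and ZNF841, had such peaks in both genes and both lists, and among the other 9 groups ZNF562 alone had one, in the knockout.

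Over the whole set of genes, many own-strand peaks lay towards the 3′ bound. In the knockout 47 of 140 summits (33.6%, interval 25.8% to 42.0%) fell in the last 20% of the gene and in wild type 40 of 139 (28.8%, interval 21.4% to 37.1%), beside 21.2% and 20.7% in other coding genes of other chromosomes. ZNF-named genes of other chromosomes had 29.1% and 27.5% there. Of the members' shared peaks, 25.6% had their summit there in each list (interval 13.5% to 41.2%). Shared peaks of other coding genes of other chromosomes had 21.7% in the knockout and 21.5% in wild type. Of the members' unshared peaks, 37.1% lay there in the knockout and 30.2% in wild type. Within 5 kb of the 3′ bound lay 41.4% of the members' knockout summits and 39.6% of their wild-type summits. Gene length enters that distance: among genes under 50 kb, 44.3% and 43.3% of the members' summits lay so close, beside 43.1% and 42.7% in ZNF-named genes of other chromosomes. In other coding genes under 50 kb the values were 35.1% and 30.2% on chromosome 19 and 29.7% and 28.7% on other chromosomes. Between 50% and 60% of the gene lay 2.86% of the members' knockout summits, the lowest of the 10 steps, and 5.04% of their wild-type summits, as low as in 2 other steps. Exons are not annotated in the tables used here, so the terminal exon with the fingers could not be marked.

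**Figure D4:**
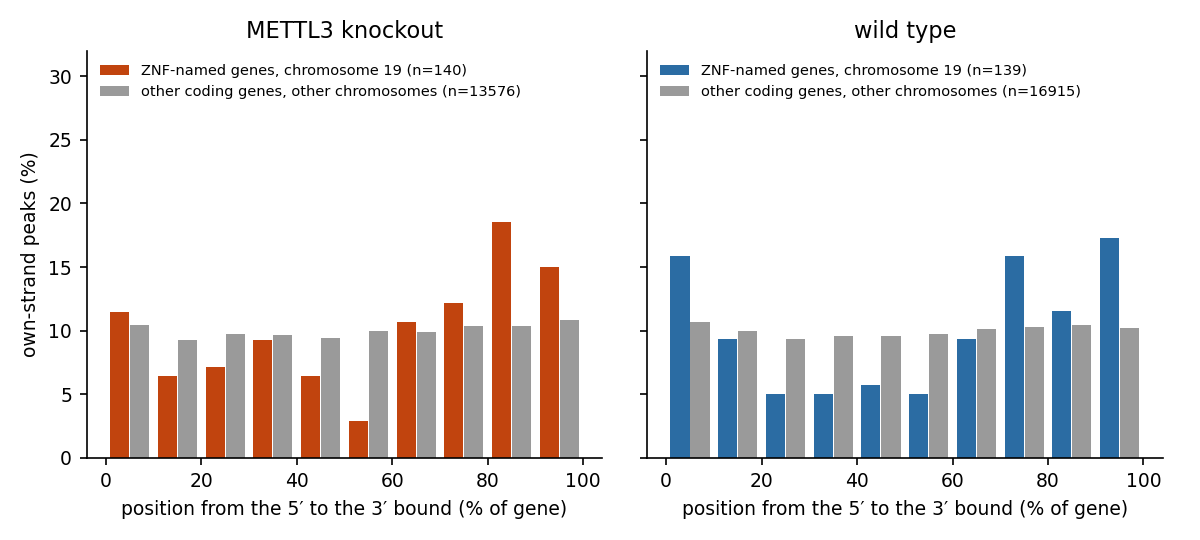
Percentage of own-strand peaks (y axis) in steps of 10% of the gene from the 5′ to the 3′ bound (x axis), in the METTL3 knockout list (left) and the wild-type list (right). Coloured bars are ZNF-named genes of chromosome 19 and grey bars other coding genes on other chromosomes; the grey bars stay near 10% while the coloured ones dip in the middle of the gene.

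Where both lists had a peak, 50 pairs in 36 genes could be compared. The log2 ratio of the folds, knockout over wild type, had a median of 0.07 with quartiles of -0.30 and 0.43, beside 0.01 with -0.50 and 0.51 over all shared pairs of the lists. The summits were a median of 27 bp apart, beside 30 bp for all pairs. In 6 pairs the folds differed at least 2-fold, 12% of the pairs, beside 20.8% of all pairs. The knockout fold was the higher in 4 of them (ZNF845, ZNF765, ZNF83 and a peak of ZNF587) and the wild-type fold in 2 (ZNF708 and a peak of ZNF611). The second peak of ZNF587 had 92 IP reads and a fold of 8.67 in the knockout, against 110 IP reads and a fold of 3.57 in wild type. ZNF708 had 7.71 in the knockout and 16.8 in wild type. The log2 ratio is by construction the difference of an IP part and an input part, and in all 6 pairs the input part was the larger in size, as in 1010 of the 1233 such pairs of the whole lists. ZNF358, outside the clusters, had nearly equal folds, 15.7 in the knockout and 16.1 in wild type.

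**Figure D5:**
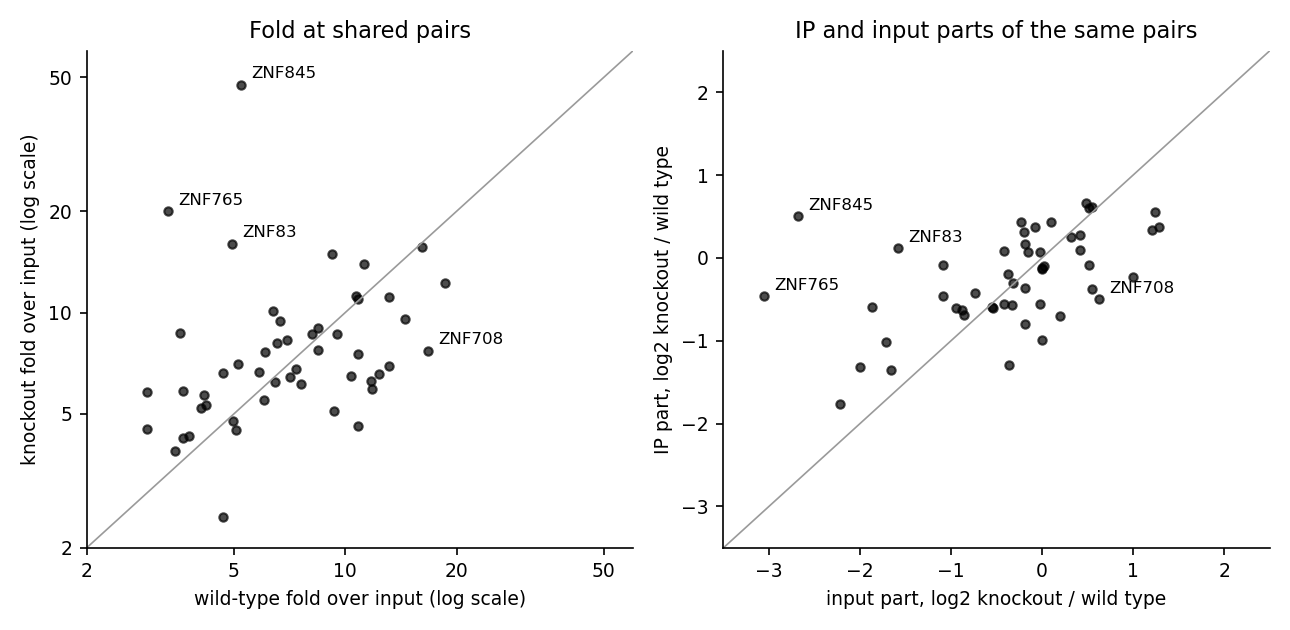
Shared pairs of peaks in ZNF-named genes of chromosome 19, 1 point per pair. Left, fold in the METTL3 knockout (y axis, log scale) against wild type (x axis, log scale), with ZNF845, ZNF765 and ZNF83 far above the line of equal folds; right, log2 ratio of knockout over wild type of the scaled IP reads (y axis) against that of the local input (x axis), where the same 3 genes lie far to the left.

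The strongest knockout peaks without a partner were those of ZNF69 (14.2, a place also inside ZNF700), ZNF160 (14.2), ZNF540 (14.1), ZNF568 (12.8) and ZNF71 (12.5). ZNF568 is the human relative of a mouse gene that silences a placental Igf2 transcript. The ZNF540 peak was 1 of 5 minus-strand knockout peaks between chr19:37565322 and chr19:37583739, with folds from 5.73 to 14.1, all inside the bounds of ZNF540, ZNF571 and the antisense gene ZNF571-AS1. The wild-type list had none there. ZNF540 is a plus-strand gene and the strand of ZNF571 is not in the table, so the peaks cannot be given to 1 of the overlapping genes. In the same cluster ZNF565 and ZNF146 overlap, and 4 knockout peaks and 1 wild-type peak on plus fell in both, on the strand of ZNF146, which encodes a finger protein with no KRAB domain. ZNF66 had 4 knockout peaks with folds from 6.50 to 9.25 and 0 wild-type peaks.

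The strongest wild-type peaks without a partner were the opposite-strand peak of ZNF791 given above and those of ZNF544 (18.8), ZNF554 (14.04), ZNF17 (13.7) and ZNF222 (13.1). ZNF791 also had a pair of shared peaks on its own strand, with knockout folds of 11.003 and 11.1 and wild-type folds of 10.9 and 13.2. ZNF507, outside the clusters, had 1 knockout peak and 5 wild-type peaks. ZNF569 had 3 knockout peaks and 4 wild-type peaks, none of them shared: the knockout peaks lay between chr19:37449651 and chr19:37455018, and 3 of the wild-type ones nearer the 5′ bound of this minus-strand gene, between chr19:37461727 and chr19:37465314. ZNF221 had 4 knockout and 5 wild-type peaks, of which 2 in each list were shared. ZNF224, which encodes a KRAB repressor of the aldolase A gene, had 1 knockout peak and 4 wild-type peaks.

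Inside the ZNF264 to ZNF446 cluster, ZNF264 had a shared peak with a fold of 13.98 in the knockout and 11.2 in wild type, from 44 and 91 IP reads. ZNF8 and ZNF460 held most peaks there, each with 3 in the knockout and 2 in wild type, and all those of ZNF8 were shared. Its first peak lay near the 5′ bound, with a fold of 8.13 in the knockout and 6.54 in wild type. A wild-type peak 807 bp wide with a fold of 2.91 met both of its other knockout peaks, whose folds were 4.50 and 5.82. ZNF460 had folds of 7.04 and 6.2 in the knockout at its shared peaks, against 5.14 and 6.47 in wild type, so the order of the lists differed between places of 1 gene.

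In the ZNF101 to ZNF254 cluster the shared peaks belonged to ZNF708, ZNF714 and ZNF254. ZNF714 had a fold of 14.96 from 36 IP reads in the knockout, against 9.20 from 59 IP reads in wild type. ZNF254 had 9.47 in the knockout and 6.65 in wild type at a pair whose summits lay 517 bp apart, the widest distance among the 50 pairs. In the ZNF565 to ZNF573 cluster the shared peaks belonged to ZNF527, ZNF875 and ZNF567, and the wild-type fold was the higher in all 3: 9.54 in the knockout and 14.6 in wild type for ZNF527, 6.27 and 11.7 for ZNF875, and 6.43 and 7.07 for ZNF567. ZNF780B, with 3 knockout peaks of folds 5.88 to 12.1 on its own minus strand, and ZNF546, with 2 of folds 8.26 and 8.41 on its own plus strand, made up the cluster that had no wild-type peak.

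A few peaks reached the annotated starts themselves. In RefSeq windows of members lay 2 knockout and 3 wild-type peaks. The 3 windows below show them, from RefSeq GRCh38.p14 on the strand of the gene, with the bases under the peak in capitals: ZNF461 at chr19:36666788-36667087 (minus, knockout peak, 110 bases), an inner start of ZNF567 at chr19:36687362-36687661 (plus, knockout peak, 128 bases) and ZNF792 at chr19:34964180-34964479 (minus, wild-type peak, 188 bases).
ZNF461: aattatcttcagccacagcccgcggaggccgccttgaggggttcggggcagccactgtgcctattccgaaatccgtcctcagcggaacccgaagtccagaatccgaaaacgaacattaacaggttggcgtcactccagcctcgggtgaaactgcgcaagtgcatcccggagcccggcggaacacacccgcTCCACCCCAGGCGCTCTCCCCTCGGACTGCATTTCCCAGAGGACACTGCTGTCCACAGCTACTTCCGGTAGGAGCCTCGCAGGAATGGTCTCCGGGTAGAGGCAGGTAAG
ZNF567: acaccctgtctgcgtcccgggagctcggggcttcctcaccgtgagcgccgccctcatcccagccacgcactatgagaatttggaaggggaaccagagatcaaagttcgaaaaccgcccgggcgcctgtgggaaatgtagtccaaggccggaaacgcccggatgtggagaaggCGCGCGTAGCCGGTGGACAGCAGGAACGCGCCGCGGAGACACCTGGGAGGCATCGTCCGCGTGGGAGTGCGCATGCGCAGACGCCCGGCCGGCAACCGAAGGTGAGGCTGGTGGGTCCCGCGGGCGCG
ZNF792: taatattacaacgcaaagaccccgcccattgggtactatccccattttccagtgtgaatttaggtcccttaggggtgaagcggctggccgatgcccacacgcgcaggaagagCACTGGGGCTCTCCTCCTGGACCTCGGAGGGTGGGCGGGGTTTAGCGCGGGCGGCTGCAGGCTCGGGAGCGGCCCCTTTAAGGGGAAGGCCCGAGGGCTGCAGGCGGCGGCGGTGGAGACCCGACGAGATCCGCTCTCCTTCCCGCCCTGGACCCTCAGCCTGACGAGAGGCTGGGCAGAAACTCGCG
The ZNF461 peak was weak, with a fold of 5.13 from 11 IP reads. It covered the start of ZNF461, with 140 of its bases inside that gene, which starts back to back with ZNF567. Under it 1 GGACT stood on the strand of ZNF461, but before the annotated start and so outside the bounds of the gene. The inner ZNF567 peak had a fold of 9.88 from 35 IP reads and no GGACT under it on the gene strand. The ZNF792 peak had a fold of 6.56 from 15 IP reads, again with none. None of the 3 had a partner in the other list. The other wild-type peaks in a start window were at ZNF296 (8.12) and, on the opposite strand, at ZNF428 (8.98), where the peak lay 20 bp outside the gene bounds and so is not counted among the members' peaks. Across the edge of the bounds lay 2 knockout and 3 wild-type member peaks, with folds of 4.54 to 5.13 and of 6.16 to 10.5. A further 2 knockout and 8 wild-type peaks lay outside by less than 1 kb, with folds of 8.18 to 9.13 and of 4.11 to 9.55.

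Among 17 genes of the corepressor machinery that KRAB zinc finger proteins use, 14 carried a knockout peak, beside 34.8% of all protein-coding genes, and 14 a wild-type peak, beside 39.6%. Both lists marked 12 of them. The 17 were not matched to all coding genes in length or transcription, and the part of either was not tested. TRIM28, the KRAB-binding corepressor, which lies at the end of chromosome 19 near the ZNF264 to ZNF446 cluster, carried none. SETDB1, the methyltransferase it recruits, had 0 knockout and 2 wild-type peaks, and the histone chaperone gene DAXX 0 and 1. The heterochromatin protein gene CBX3 had 1 knockout and 0 wild-type peaks, and MORC2, an ATPase of the HUSH silencing pathway, 3 and 0. ATRX, which encodes a chromatin remodeller and is a long gene, had 8 and 7, of which 3 in each list were shared. The HUSH gene MPHOSPH8 had 4 and 3, all but 1 of them shared. Of 23 other genes of chromosome 19 with zinc finger names outside the symbol rule, 6 carried a knockout peak, beside the same 34.8% of all coding genes, and 6 a wild-type peak, beside 39.6%, with 4 in both lists. Some of these are read-through genes whose peaks are those of ZNF765, ZNF761 and other members.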

How the data were processed

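Per the labels' protocols, chromosome-associated RNA of METTL3-/- and wild-type HEK293T cells was freed of DNA and ribosomal RNA, immunoprecipitated with an m6A kit and made into stranded libraries. Peaks are in the layout of MACS2 (version 2.2.7.1), which the submitters' processing notes list with SAMtools (1.15.1), HISAT2 (2.2.1) and build hg38. The threshold, the pooling of replicates and the treatment of multi-mapped reads are not given in the sources used here. In the deposited lists the fold column is a linear ratio (IP over the input around the peak, with 1 added to both), and a p-value and a q-value stand as deposited −log10 values (lowest −log10 q 2.02 in the knockout and 2.01 in wild type). The deposited score column was not used. The members, lists and comparisons were chosen with earlier results of these data known.

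Peaks were assigned by overlap of at least 1 bp to RefSeq GRCh38.p14 bounds, regardless of strand, and a peak in several members was counted once per list in totals. IP reads and local input at each summit were recovered from the fold and the −log10 p, which the authors' caller derives from them, for 96.4% to 99.5% of the peaks of each strand and list, to within 0.001 of a whole read. Start windows were aligned globally with free end gaps in Biopython 1.88. Python 3.11.15, numpy 2.4.6, pandas 2.3.3, SciPy 1.17.1 and matplotlib 3.10.9 were used, and the steps were tested on simulated data. Named genes were those with the 10 highest folds per list, the 10 with most peaks, the 10 shared pairs with the highest wild-type fold, the 5 highest unshared folds per list, the gene with most peaks in each cluster, and members of the fixed corepressor list. ZNF430, ZNF431 and the other genes named for a peak near the start or a start window, ZNF66, ZNF91, ZNF93, ZNF460 and ZNF546 fall outside that rule and were chosen after their values were seen. The peaks of a list of genes of other cell types are not reported here.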

Additional observations from a re-analysis of the deposited data

How the results depend on the processing

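No paired analysis was possible because the lists carry no value per replicate, and for the same reason no replicate could be left out. Counts of protein fingers were not run, since no protein table is used here. Of 72 recomputed values, 65 were classed as within the spread or counting error of the reported one. Some of the 65 could not move, such as gene counts and median folds where only the rule for sharing was changed. The number of clusters was also among them, though the 11 became 14 with gaps of at most 250 kb and 10 with gaps of at most 1000 kb. Under equal numbers of the most significant peaks per list, knockout peaks per 100 wild-type peaks became 123, the median wild-type fold 7.99 and the median log2 fold ratio at shared pairs -0.011. That setting drops wild-type peaks alone and puts the whole lists at 100 by construction, in place of 82.3. With peaks on the strand of the gene only, there were 100.7 knockout peaks per 100 wild-type peaks. Taking the last 10% of the gene in place of the last 20%, 15% of knockout and 17.3% of wild-type summits lay there. Without the ZNF175 to ZNF331 cluster, an alternative chosen after seeing the data, 22.6% of knockout and 21.8% of wild-type member peaks were shared, and the cause of each shift was not tested. Of member peaks with up to 15 IP reads, 3 of 32 in the knockout and 3 of 35 in wild type were shared, so an unshared peak does not show a change between genotypes.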
